A study of Mus musculus with 4 samples.

Results

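The 45 genes described here belong to DNA replication in S phase (16 genes) and to the passage through G2 and mitosis (29 genes). They were taken as the rows of the deposited gene table whose symbol was on a fixed list of proliferation genes, and all 45 were found among its 39170 rows. RNA was sequenced from pancreatic islet cells of MIP-GFP C57BL/6 mice, males of 6 to 8 weeks, a transgenic strain in which the mouse insulin promoter (MIP) drives green fluorescent protein. Insulin-positive cells were sorted by Glut2, a glucose transporter whose gene is Slc2a2, into a fraction with a high level (Glut2H) and a fraction with a low level (Glut2L). The mice had received either streptozotocin (STZ, 200 mg/kg, injected into the peritoneum in citrate buffer), a toxin that enters beta cells through Glut2 and was followed by diabetes 4 days later, or vehicle. This gave 4 groups, the Glut2H and Glut2L fractions of control and of STZ mice, all on the MIP-GFP background, with 3 mice per treatment group and 1 library per sorted fraction. The sources used here do not say whether the 3 mice were pooled. With 1 library per group there was no replicate check, no test was run, and every difference below describes these 4 libraries.

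Cells copy their DNA in S phase and divide the copies in mitosis, and each step relies on its own set of periodically transcribed genes. The MCM helicase is loaded on replication origins in G1 and opens the DNA in S phase, while PCNA clamps the polymerases to the fork and ribonucleotide reductase with thymidylate synthase supplies nucleotides. Cyclin B with CDK1 then drives entry into mitosis, the spindle checkpoint holds chromosomes until all are attached, and the anaphase-promoting complex with CDC20 starts their separation. Genes of the S phase set are classically controlled by E2F factors, and genes of the mitotic set by the MuvB complex with MYBL2 and FOXM1. Adult beta cells are known for dividing rarely.

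Levels are FPKM (sequenced fragments per kilobase of a transcript, scaled for library size), and lists of 4 levels give the control libraries first (Glut2H, then Glut2L) and the STZ libraries after them (Glut2H, then Glut2L). Differences are of log2(FPKM + 1), which understates the change of low genes. A gene counted as different when it passed the 2-fold line (a log2 difference of at least 1 in size), among genes with at least 1 FPKM in either library. The number of reads behind each library is unknown. Slc2a2 itself, at 8.74, 41.0, 10.8 and 33.7 FPKM, went against the gate names, and so did Ins1 and Ins2, so each direction between gates below is between the libraries labelled Glut2L and Glut2H. Of 20 beta cell identity markers, 16 stood above the 2-fold line in favour of the Glut2L-labelled library in control mice and 17 in STZ mice, and none was lower. Markers of other cells differed between the gates in both directions. The summed level of 20 immune markers was 3905, 134, 4255 and 176 FPKM, highest in the Glut2H libraries. The sum over 12 endothelial markers was 352, 44.3, 302 and 21.7 FPKM, and that over 14 stromal markers 960, 64.3, 820 and 25.3 FPKM. In the other direction, 10 alpha, delta and PP cell markers summed to 7927, 13767, 9988 and 20479 FPKM and 11 duct markers to 559, 1121, 495 and 927 FPKM. The 19 acinar markers summed to 4670, 3724, 5052 and 439 FPKM, low in Glut2L STZ. A single short predicted gene, Gm20594, made up 61.0%, 3.86%, 68.5% and 4.15% of the FPKM sum, so the libraries also differed in composition. In bulk RNA, fewer cells of a type and less RNA per cell cannot be told apart.

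The summed level of the mitotic genes was highest in the Glut2L-labelled library from STZ mice and lowest in the Glut2H-labelled library from STZ mice. As deposited, the S phase genes summed to similar levels in all 4, which did not hold under every scaling. The summed level of the 29 G2 and mitosis genes was 46.9, 52.5, 30.0 and 103 FPKM. The 16 S phase genes summed to 123, 97.9, 112 and 119 FPKM. With every library scaled to an equal sum, the S phase totals became 100.3, 142, 78.1 and 183 and the mitotic totals 38.2, 76.0, 20.97 and 158, so the S phase total was then also highest in Glut2L STZ. The ratio of the mitotic to the S phase sum within a library, which no scaling of libraries changes, was 0.381, 0.537, 0.269 and 0.865. A large part of the S phase sum came from Pcna, and without it the ratio was 0.618, 0.767, 0.443 and 1.28, in the same order of libraries. Leaving out the unreliable rows of Cdt1 and Gins2, described below, gave 0.444, 0.627, 0.30 and 1.05.

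**Figure D1:**
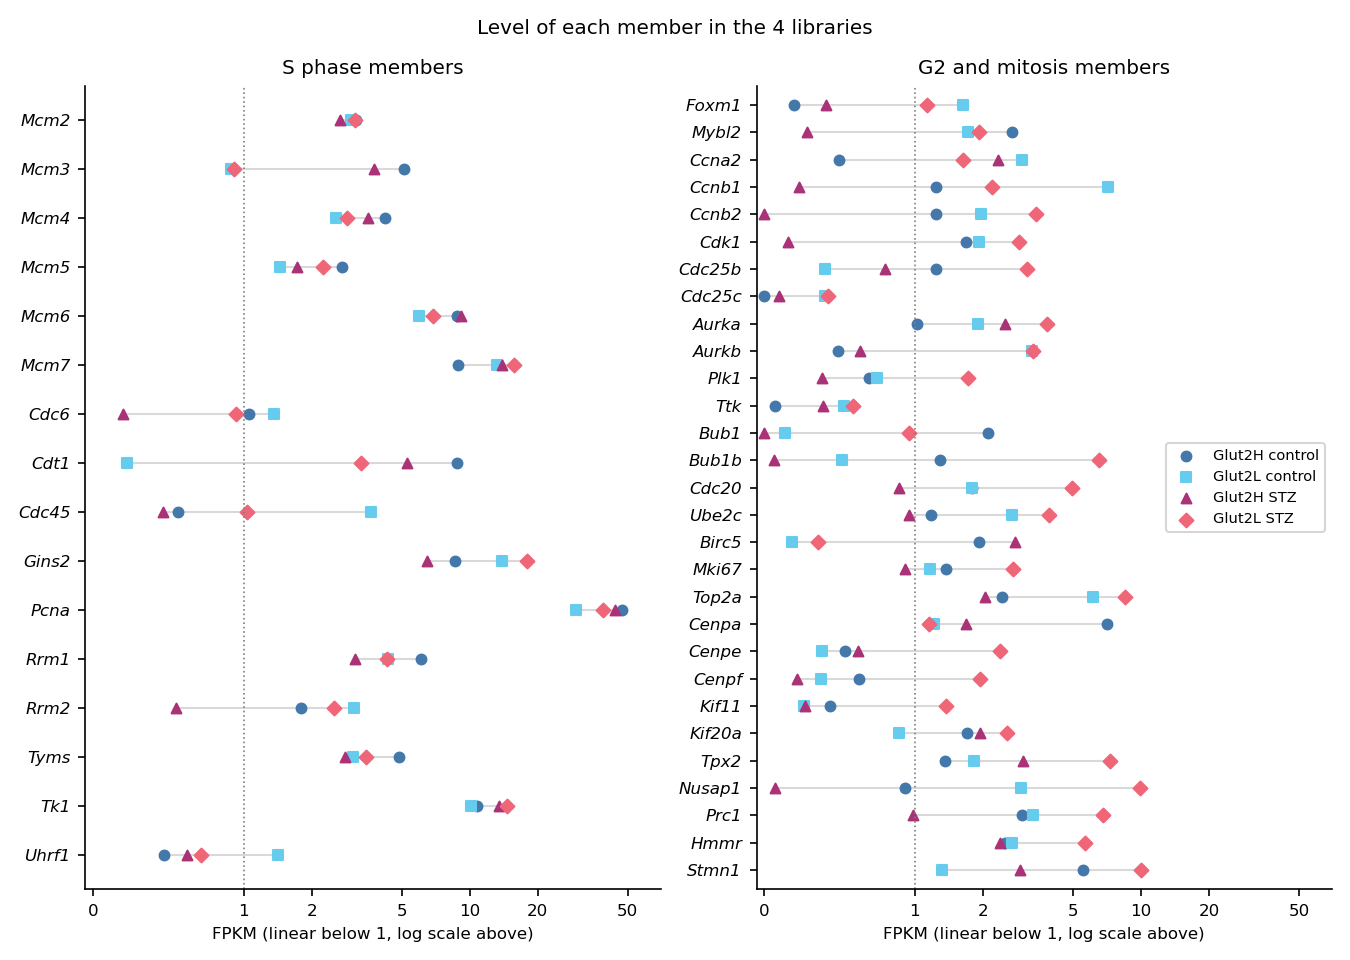
Level of each of the 45 genes in the 4 libraries (1 point per library, FPKM on the horizontal axis, linear below 1 and logarithmic above, dotted line at 1 FPKM), with S phase genes on the left and G2 and mitosis genes on the right. The Glut2L STZ diamonds lie farthest right for 22 of the 29 G2 and mitosis genes and for 3 of the 16 S phase genes.

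By gene, 22 of the 29 G2 and mitosis genes (75.9%) had their highest level in the Glut2L STZ library, and 15 of 29 had their lowest in the Glut2H STZ library. Across the 17832 rows of the table that reached 1 FPKM in some library, 28.7% were highest in Glut2L STZ, and of the 15410 of them with a single lowest library 33.7% were lowest in Glut2H STZ. The 22 include Ttk and Cdc25c, which never reached 1 FPKM and so are not among those rows. Only 3 of 16 S phase genes were highest in Glut2L STZ, and 8 of 16 were highest in Glut2H control, beside 23.5% of all rows. This ranking was chosen after the values were seen, and it was repeated under 3 other scalings of the libraries. The mitotic count moved between 21 and 23 of 29, while the S phase count went from 3 to 10 of 16 when every library was scaled to an equal sum and to 1 of 16 when the median ratio between libraries was set to 1. Of all rows, 43.9% and 23.3% were highest in Glut2L STZ under these scalings. The level of the typical mitotic gene was low throughout: the median over the 29 was 1.25, 1.63, 0.638 and 2.72 FPKM, against 4.99, 3.06, 3.34 and 3.21 FPKM over the 16 S phase genes. At least 1 FPKM was reached by 19, 18, 9 and 25 of the 29 mitotic genes and by 14, 14, 12 and 13 of the 16 S phase genes. A level of 1 FPKM or more in all 4 libraries was found for 10 S phase and 6 mitotic genes. Ttk, a spindle checkpoint kinase, and Cdc25c, a phosphatase that activates CDK1, stayed below 1 FPKM in every library. Cdc25c was listed at 0 in Glut2H control and at 0.406, 0.10 and 0.426 FPKM elsewhere, and Ttk ranged from 0.0712 to 0.588 FPKM.

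The choice of genes did not use their promoters, in which the motifs of the 2 sets can be compared. RefSeq promoters on GRCm38.p6 (250 bases before to 50 bases after the annotated start) were matched by symbol for 36 of the 45 genes, 14 of S phase and 22 of G2 and mitosis. They were searched on both strands for the cell cycle homology element CHR (TTTGAA, the MuvB site of mitotic promoters), the CCAAT box (CCAAT) and an E2F form (TTTNNCGC). In the windows printed below no match overlaps another. A CHR was found in 15 of 22 mitotic promoters (68.2%) and 2 of 14 S phase promoters (14.3%), against 20.2% of 27025 genes. An E2F match was found in 8 of 14 S phase promoters (57.1%) and 1 of 22 mitotic promoters (4.55%), against 5.93% of all genes. CCAAT was frequent in both, at 10 of 14 (71.4%) and 19 of 22 (86.4%), against 41.1% of all genes. All 15 mitotic promoters with a CHR also held a CCAAT box, a pairing found in 8.97% of all genes. A match is a description of the letters in this window, and no match says only that these letters are not in it.

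Printed here are promoters of genes past the 2-fold line in some comparison, 2 of S phase and then 3 of mitosis, so that the layouts can be compared. They were taken by the number of kinds of motif and, where that was equal, in alphabetical order: Cdk1 holds 3 kinds, and Bub1b and Ccnb2 hold 2, as do Cdc20, Cenpa, Cenpf, Prc1, Top2a and Ube2c. Each runs 5′ to 3′ on the gene's strand, with motif matches on either strand in capitals (TTCAAA and ATTGG are CHR and CCAAT read from the other strand). The windows are chr16:18811923-18812222 (minus strand) for Cdc45, chr1:20820263-20820562 (minus) for Mcm3, chr10:69352863-69353162 (minus) for Cdk1, chr2:118597961-118598260 (plus) for Bub1b and chr9:70421505-70421804 (minus) for Ccnb2.
Cdc45: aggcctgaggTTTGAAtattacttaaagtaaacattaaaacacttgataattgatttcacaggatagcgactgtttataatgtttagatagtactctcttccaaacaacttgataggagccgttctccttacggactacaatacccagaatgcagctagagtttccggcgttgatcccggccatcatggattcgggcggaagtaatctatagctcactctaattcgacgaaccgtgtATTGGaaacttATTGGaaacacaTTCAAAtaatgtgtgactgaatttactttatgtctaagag
Mcm3: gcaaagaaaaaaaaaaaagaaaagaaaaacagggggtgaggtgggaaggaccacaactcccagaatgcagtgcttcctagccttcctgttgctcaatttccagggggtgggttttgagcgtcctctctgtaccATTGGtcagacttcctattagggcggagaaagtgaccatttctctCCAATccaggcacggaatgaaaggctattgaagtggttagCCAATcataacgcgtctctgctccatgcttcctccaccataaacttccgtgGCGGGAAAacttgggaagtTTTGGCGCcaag
Cdk1: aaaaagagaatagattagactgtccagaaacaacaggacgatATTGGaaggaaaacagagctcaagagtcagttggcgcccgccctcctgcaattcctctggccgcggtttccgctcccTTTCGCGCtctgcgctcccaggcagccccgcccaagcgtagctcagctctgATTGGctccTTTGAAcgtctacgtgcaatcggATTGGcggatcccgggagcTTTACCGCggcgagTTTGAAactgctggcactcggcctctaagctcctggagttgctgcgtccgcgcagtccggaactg
Bub1b: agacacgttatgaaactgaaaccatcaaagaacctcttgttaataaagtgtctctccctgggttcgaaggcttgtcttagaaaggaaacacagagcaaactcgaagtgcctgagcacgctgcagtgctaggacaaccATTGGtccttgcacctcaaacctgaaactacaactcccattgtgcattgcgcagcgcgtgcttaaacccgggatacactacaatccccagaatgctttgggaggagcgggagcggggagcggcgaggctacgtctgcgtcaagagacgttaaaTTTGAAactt
Ccnb2: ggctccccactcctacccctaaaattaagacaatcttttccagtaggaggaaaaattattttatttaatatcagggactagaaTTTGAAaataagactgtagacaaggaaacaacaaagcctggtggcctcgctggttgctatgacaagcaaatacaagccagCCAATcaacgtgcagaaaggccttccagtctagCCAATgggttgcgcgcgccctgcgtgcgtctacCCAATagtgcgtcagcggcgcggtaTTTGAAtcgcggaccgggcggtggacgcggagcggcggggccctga
Counting from the annotated start as base 0, the Mcm3 promoter holds 2 E2F matches downstream of the start, at 19 and 38, with 3 CCAAT boxes at -117, -72 and -32 and no CHR. Cdk1 is the mitotic promoter with all 3 motifs: its CHR copies start at -71 and -15, its CCAAT boxes at -208, -80 and -48, and its E2F matches at -131 and -29. In Ccnb2 the CCAAT boxes at -87, -54 and -21 precede a CHR at 4, and another CHR lies at -167. Bub1b has 1 CCAAT box at -113 and 1 CHR at 40. Cdc45 is 1 of the 2 S phase promoters with a CHR, at -240 and 10, beside CCAAT boxes at -13 and -2, and Mcm2 is the other. The levels of these 5 genes are given with their groups below.

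Among the replication genes, the MCM helicase subunits were detected in every library at moderate levels. Mcm7 (chr5:138164583-138172422, minus strand, ENSMUSG00000029730) stood at 8.84, 13.2, 13.9 and 15.6 FPKM. Its locus row overlaps Cops6 and the microRNA genes Mir25, Mir93 and Mir106b, so reads may be shared between them. Mcm6 was at 8.79, 5.98, 9.13 and 6.87 FPKM, higher in both Glut2H libraries but within the 2-fold line. Mcm3 (chr1:20802968-20820312, minus strand, ENSMUSG00000041859), whose promoter is printed above, was at 5.12, 0.917, 3.76 and 0.934 FPKM. It was the helicase subunit that separated the gates, lower in the Glut2L-labelled library by a log2 difference of -1.67 in control mice and -1.30 in STZ mice. Its partners in the same ring stood differently: Mcm2, Mcm4 and Mcm5 lay between 1.45 and 4.22 FPKM in all 4 libraries, and neither they nor Mcm6 and Mcm7 passed the 2-fold line in any comparison.

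The loading and firing factors of the helicase were more scattered. Cdc45, which joins the MCM ring to make it active, was at 0.567, 3.65, 0.464 and 1.04 FPKM. Its Glut2L control value stood above the other 3, with a log2 difference of 1.57 between gates in control mice and -1.19 for STZ against control in Glut2L. Cdt1, which loads MCM on origins, was listed at 8.75, 0.228, 5.27 and 3.29 FPKM, and Gins2, a subunit of the active helicase, at 8.64, 13.9, 6.50 and 18.0 FPKM. Both come from 1 merged locus row (chr8:119910359-124345724) that holds 183 rows of the table. The upper interval bounds of Gins2 ran from 41.9 to 91.8 FPKM, and all lower bounds of both genes were 0. The values of these 2 genes are therefore uncertain, although they account for 3 of the 8 calls among S phase genes. Cdc6, the partner of Cdt1 in loading, ranged from 0.203 to 1.37 FPKM and passed the 2-fold line nowhere.

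At the fork, Pcna (chr2:132249162-132253314, minus strand, ENSMUSG00000027342) was the most abundant of the 45 genes, at 47.1, 29.4, 44.1 and 38.7 FPKM. Its largest difference was a log2 value of -0.66 between the libraries labelled Glut2L and Glut2H of control mice, within the 2-fold line. Tk1, thymidine kinase, was nearly level at 10.8, 10.2, 13.4 and 14.6 FPKM. The large subunit of ribonucleotide reductase, Rrm1, was at 6.09, 4.37, 3.11 and 4.29 FPKM. The small subunit Rrm2, the limiting partner in S phase, was at 1.79, 3.08, 0.554 and 2.52 FPKM. Rrm2 thus had its lowest level in Glut2H STZ and was the only gene of this group past the 2-fold line, with a log2 difference of 1.18 between gates in STZ mice. Tyms, thymidylate synthase, lay between 2.81 and 4.85 FPKM, and Uhrf1, which takes part in copying DNA methylation to the new strand, between 0.475 and 1.41 FPKM.

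The transcription factors of the mitotic set were low. Foxm1 was at 0.198, 1.63, 0.408 and 1.13 FPKM, higher in the Glut2L-labelled library under either treatment, with a log2 difference of 1.14 in control mice and 0.60 in STZ mice. Mybl2 was at 2.69, 1.71, 0.286 and 1.92 FPKM, with its low value in Glut2H STZ. Its log2 difference for STZ against control was -1.52 in Glut2H and 0.11 in Glut2L.

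Both B cyclins and Cdk1 had their lowest level in Glut2H STZ, while Ccna2, Cdc25b and Cdc25c were lowest in other libraries. Ccnb1, cyclin B1, was at 1.24, 7.14, 0.234 and 2.20 FPKM and was highest in Glut2L control, so it did not follow the common mitotic order. Ccnb2, cyclin B2, was at 1.25, 1.96 and 3.43 FPKM in Glut2H control, Glut2L control and Glut2L STZ and was listed at 0 in Glut2H STZ. Cdk1, the kinase both cyclins activate, was at 1.68, 1.92, 0.156 and 2.88 FPKM. Its log2 difference was 1.75 between gates in STZ mice, 0.13 between gates in control mice, and -1.21 for STZ against control in Glut2H. The CHR and CCAAT layouts of Cdk1 and Ccnb2 are those printed above, while the Ccnb1 window held 2 CCAAT boxes and no CHR. Ccna2, cyclin A2, which acts in S phase and G2, was at 0.496, 2.99, 2.33 and 1.64 FPKM and was the only mitotic gene at least 2-fold higher after STZ in Glut2H, with a log2 difference of 1.16. Cdc25b, a phosphatase that activates CDK1, was at 1.24, 0.402, 0.806 and 3.14 FPKM, highest in Glut2L STZ with a log2 difference of 1.56 from Glut2L control.

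Among the checkpoint genes, Bub1b stood out by its STZ differences in the 2 gates. Bub1b (chr2:118598211-118641591, plus strand, ENSMUSG00000040084), which encodes the spindle checkpoint protein BUBR1, was at 1.29, 0.518, 0.0640 and 6.51 FPKM. Its log2 difference for STZ against control was -1.10 in Glut2H and 2.31 in Glut2L, and it was the only gene of the 45 past the 2-fold line in opposite directions in the 2 gates. With an equal sum per library its Glut2H value was -0.97, short of the line. Its kinase relative Bub1 was at 2.10, 0.139 and 0.958 FPKM in Glut2H control, Glut2L control and Glut2L STZ and was listed at 0 in Glut2H STZ. Bub1 was highest in Glut2H control, so these relatives did not share their order. Cdc20, the activator of the anaphase-promoting complex, was at 1.78, 1.79, 0.898 and 4.97 FPKM, level between gates in control mice and 1.65 higher on the log2 scale in the Glut2L-labelled library of STZ mice. Ube2c, the E2 enzyme of that complex, was at 1.17, 2.68, 0.963 and 3.93 FPKM.

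Of the mitotic kinases, Aurkb followed the gate rather than the treatment, at 0.490, 3.30, 0.638 and 3.34 FPKM, with log2 differences between gates of 1.53 in control and 1.41 in STZ mice. Birc5 (survivin), its partner in the chromosomal passenger complex, had the opposite order, at 1.92, 0.187, 2.76 and 0.356 FPKM, with log2 differences of -1.30 and -1.47. The levels of these 2 partners therefore ran in opposite directions between the gates under both treatments. Aurka, the spindle pole kinase, was at 1.03 to 3.83 FPKM and Plk1, a kinase of mitotic entry and exit, at 0.383 to 1.71 FPKM. Both had their highest level in Glut2L STZ, and neither passed the 2-fold line.

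The chromosome, centromere and spindle genes held the highest mitotic levels, most of them in Glut2L STZ. Nusap1 (chr2:119618298-119651244, plus strand, ENSMUSG00000027306), a microtubule binder of the spindle, was at 0.932, 2.96, 0.0731 and 9.86 FPKM, and its log2 difference of 3.34 between gates in STZ mice was the largest of the 45 genes in any comparison. Its locus row overlaps Oip5, so some reads may be shared. Stmn1 (stathmin, chr4:134468320-134473843, plus strand), which destabilizes microtubules, was at 5.57, 1.31, 2.91 and 9.997 FPKM. It was lower in the Glut2L-labelled library of control mice (log2 difference -1.51) and higher in that of STZ mice (1.49). Top2a (chr11:98992943-99024189, minus strand), the topoisomerase that untangles sister chromatids, was at 2.44, 6.13, 2.04 and 8.50 FPKM, higher in the Glut2L-labelled library under both treatments.

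Tpx2, the activator of Aurora A on spindle microtubules, was at 1.36, 1.82, 3.01 and 7.27 FPKM, above control in both STZ libraries with log2 differences of 0.77 in Glut2H and 1.55 in Glut2L. Prc1, which bundles the midzone of the anaphase spindle, was at 2.99, 3.33, 0.988 and 6.78 FPKM, level between the control libraries and 1.97 apart on the log2 scale between the STZ libraries. Hmmr, a spindle assembly factor, was at 2.50, 2.68, 2.37 and 5.67 FPKM. These 3 genes shared a high value in Glut2L STZ, and Hmmr remained within the 2-fold line. Mki67, the gene of the proliferation antigen Ki-67, was at 1.38, 1.17, 0.938 and 2.72 FPKM and also passed the line nowhere.

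Centromere genes split. Cenpa, the centromeric histone H3 variant, was at 7.06, 1.22, 1.69 and 1.16 FPKM, with Glut2H control far above the other 3 libraries. Cenpe, a kinetochore motor, was at 0.538, 0.387, 0.624 and 2.37 FPKM, and Cenpf, a kinetochore protein, at 0.629, 0.378, 0.220 and 1.94 FPKM. Both of the latter were below 1 FPKM in 3 libraries and above it in Glut2L STZ. The motors Kif11, which pushes spindle poles apart, and Kif20a, which acts in cytokinesis, ranged from 0.268 to 1.38 and from 0.896 to 2.55 FPKM, highest in Glut2L STZ and within the 2-fold line everywhere.

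In control mice the 2 gates differed in both directions among these genes and at about the rate of the whole table. Of 39 genes with enough signal, 7 were at least 2-fold higher in the Glut2L-labelled library, against 19.7% of all 16234 genes compared, and 6 were lower, against 18.5%. These counts are close to the background. The higher ones were 6 mitotic genes (Ccnb1, Aurkb, Ccna2, Foxm1, Top2a and Nusap1) and Cdc45. The lower ones were 4 mitotic genes (Cenpa, Stmn1, Bub1 and Birc5) with Mcm3 and Cdt1. The median log2 difference over all 29 mitotic genes was 0.07 and over all 16 S phase genes -0.24, while the median of all genes compared was 0.15. Neither sign held under every scaling: over genes with enough signal the mitotic median turned from 0.12 to -0.0285 when differences were centred on the median gene, and the S phase median from -0.24 to 0.44 with an equal sum per library.

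After STZ most mitotic genes stood higher in the Glut2L-labelled library, with Birc5 past the 2-fold line the other way. Of 40 genes with enough signal, 18 were at least 2-fold higher in the Glut2L-labelled library, where the background was 22.9% of 15839 genes, and 2 (Mcm3 and Birc5) were lower, where it was 17.8%. Mitotic genes made up 16 of the 18, with Rrm2 and Gins2 from S phase. Most of these 16 were below 1 FPKM in Glut2H STZ, so they passed the filter only through the library where they were high. At least 1 FPKM was reached by 9 of the 29 mitotic genes in Glut2H STZ and by 25 in Glut2L STZ. The count of 18 is therefore not a fair match to the background share. Of all 29 mitotic genes 26 lay above 0, with a median log2 difference of 1.05, and of all 16 S phase genes 11 lay above 0, with a median of 0.16. The median of all genes compared was 0.23, so the S phase genes were near it and the mitotic genes above. With differences centred on the median gene, the S phase median over genes with enough signal turned from 0.16 to -0.0728. In the same pair of libraries the immune markers stood at a summed 4255 and 176 FPKM and the endothelial ones at 302 and 21.7 FPKM, higher in Glut2H, with 16 of 20 immune and 10 of 12 endothelial markers past the 2-fold line in that direction. All 14 stromal markers were lower in the Glut2L-labelled library as well, and so were 16 of 19 acinar markers, at a summed 5052 and 439 FPKM. Between the control libraries 0 acinar markers passed the line, so the acinar markers too separated the gates in STZ mice and not in control mice. The part of cell composition in the result was not tested.

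**Figure D2:**
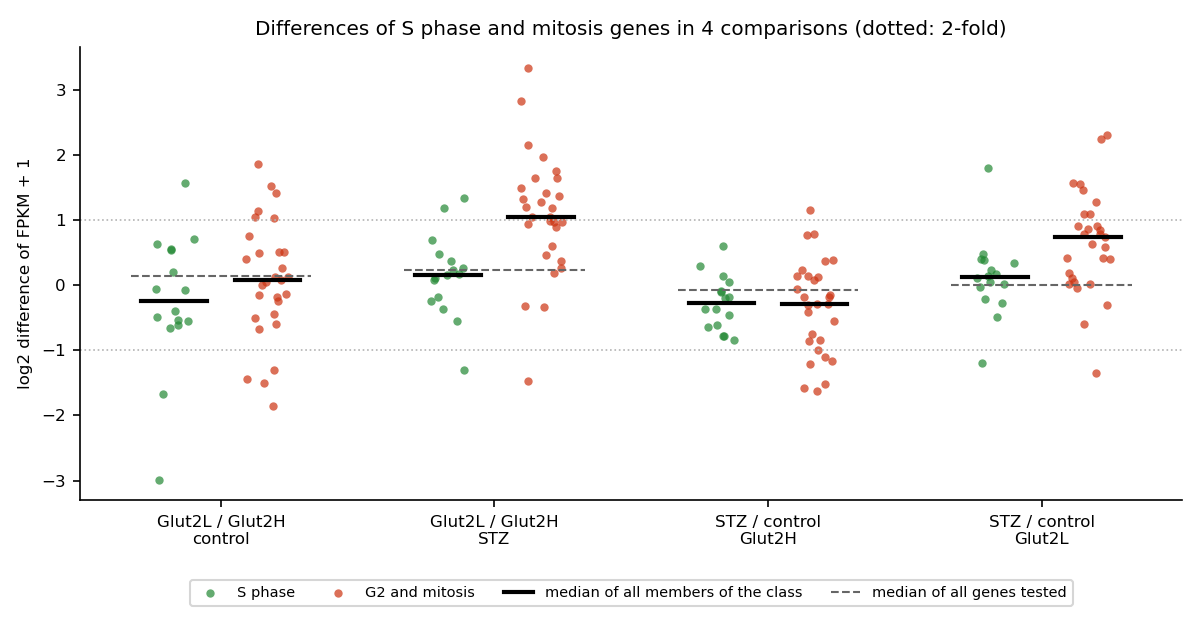
Log2 difference of FPKM + 1 (vertical axis) of each S phase gene (green) and each G2 and mitosis gene (red) in the 4 comparisons, with black bars for the median of all genes of a class, dashed lines for the median of all genes compared and dotted lines at 2-fold. The mitotic median stands at 1.05 between gates in STZ mice and at 0.74 for STZ against control in Glut2L, and the S phase medians lie between -0.28 and 0.16.

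Within the libraries labelled Glut2H, 7 of the 29 mitotic genes were past the 2-fold line downward after STZ and 1 upward. Of 34 genes with enough signal 7 were at least 2-fold lower after STZ, beside a background of 13.8% of 15558 genes, and 1 (Ccna2) was higher, beside 9.62%. All 7 were mitotic: Mybl2, Ccnb2, Cdk1, Bub1, Bub1b, Cenpa and Prc1, the last barely past the line (a log2 difference of -1.003). All of them but Cenpa were below 1 FPKM in Glut2H STZ and passed the filter only through Glut2H control. Ccna2, the higher gene, was below 1 FPKM in Glut2H control and passed the filter only through Glut2H STZ. No S phase gene passed the line in either direction. The median over all 29 mitotic genes was -0.30 and that over all 16 S phase genes -0.28, against -0.07 for all genes compared. Over all members both classes thus lay below it by a like amount, which did not hold under every setting. With a filter of 5 FPKM the mitotic and S phase medians were -1.17 and -0.23, and with loci of 1 gene -0.98 and -0.41. With a pseudocount of 5 they were -0.15 and -0.20. Immune markers summed to 3905 and 4255 FPKM in these libraries and endothelial markers to 352 and 302 FPKM, with 3 of 20 and 3 of 12 at least 2-fold lower after STZ. Their part in the result was not tested.

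Within the libraries labelled Glut2L, 8 of the 29 mitotic genes were past the 2-fold line upward after STZ and 1 downward. Of 40 genes with enough signal 9 were at least 2-fold higher, beside a background of 10.2% of 15602 genes, and 2 (Cdc45 and Ccnb1) were lower, beside 11.1%. The 9 were Bub1b, Stmn1, Cdc25b, Tpx2, Nusap1, Cenpe, Cdc20 and Cenpf of mitosis and Cdt1 of S phase. Of these, Bub1b, Cdc25b, Cenpe, Cenpf and Cdt1 were below 1 FPKM in Glut2L control and passed the filter only through Glut2L STZ. The median over all 29 mitotic genes was 0.74, with 25 above 0, while that over all 16 S phase genes was 0.13, with 11 above 0, and that of all genes compared was 0.00. Between these libraries the acinar markers summed to 3724 FPKM in control and 439 FPKM in STZ, with 15 of 19 past the 2-fold line downward, stromal markers stood at 64.3 and 25.3 FPKM and endothelial markers at 44.3 and 21.7 FPKM. Immune markers were at 134 and 176 FPKM, where 1 of 20 was higher by 2-fold or more and 1 lower. Of the 20, 13 lay above 0 and 6 below. The T cell marker Cd3e was listed at 0 in both Glut2L libraries and was below 1 FPKM in the Glut2H libraries too. The alpha cell hormone gene Gcg was at 4170 and 9893 FPKM. The part of these cells in the result was not tested. In all 4 comparisons, genes that passed the filter only through 1 library had to be higher in that library, although not always by 2-fold. This favours counts towards that library, which is why medians are given over all members.

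The STZ differences in the gates share no library and can be set side by side. Of the 29 mitotic genes 17 (58.6%) were below 0 in Glut2H and above 0 in Glut2L, compared with 24.5% of 17732 rows that reached 1 FPKM. Among the 16 S phase genes 8 (50%) had this pattern. The STZ difference was larger in Glut2L than in Glut2H for 21 of 29 mitotic (72.4%) and 13 of 16 S phase genes (81.3%), against 53.1% of all those rows. The S phase shares thus rest on small differences in both gates, since only Cdt1 and Cdc45 passed the 2-fold line in either.

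**Figure D3:**
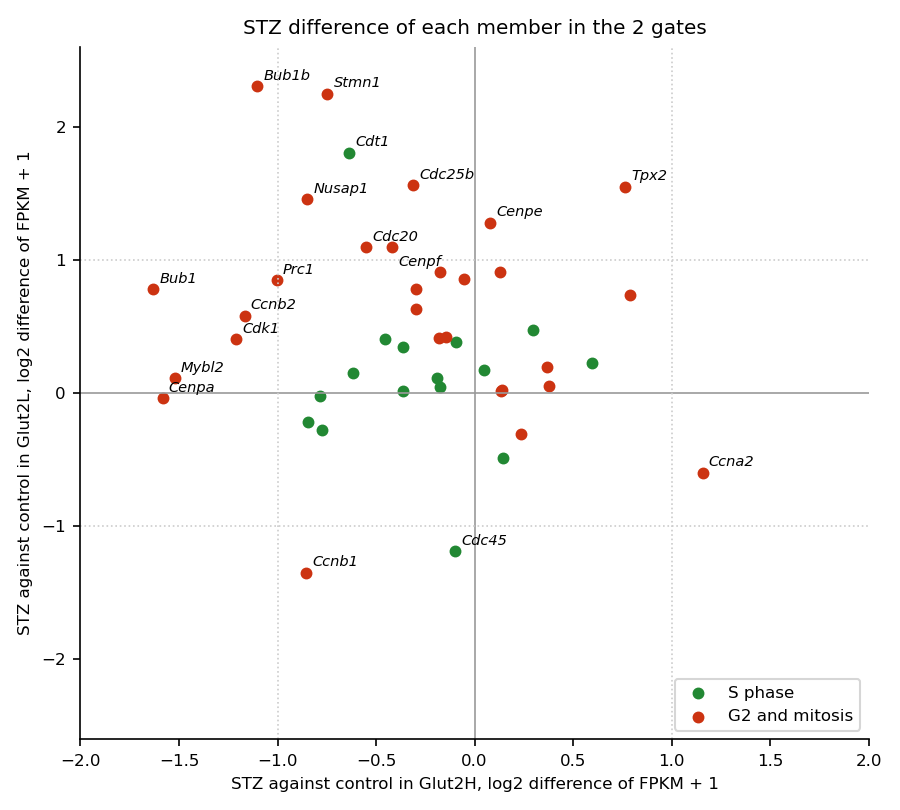
Log2 difference of FPKM + 1 for STZ against control in Glut2H (horizontal axis) and in Glut2L (vertical axis), 1 point per gene, S phase green and G2 and mitosis red, with dotted lines at 2-fold and names for genes past it in either gate. Bub1b lies alone at upper left, at -1.10 and 2.31, and 17 of 29 mitotic genes lie in the quadrant below 0 in Glut2H and above 0 in Glut2L.

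Single genes were measured with little precision. The deposited interval around each FPKM, whose level is not stated, had a median half-width of 97.2%, 95.0%, 118% and 92.3% of the level for S phase genes and 129%, 128%, 138% and 104% for mitotic genes. A lower bound of 0 was given for 18, 20, 19 and 12 of the mitotic genes with an interval. Among the genes past the 2-fold line the intervals were apart for Cenpe and Ccnb2. For Cenpe (chr3:135212537-135273611, plus strand, ENSMUSG00000045328) the interval was 0.0351 to 0.736 FPKM in Glut2L control and 0.824 to 3.91 FPKM in Glut2L STZ. For Ccnb2 the separation came from Glut2H STZ, where the level and both bounds are listed at 0. Nusap1, with the largest difference of all, had an interval of 0.0686 to 30.4 FPKM in Glut2L STZ and 0 to 1.43 FPKM in Glut2H STZ, which overlap. By the same measure 154 genes of the whole table were higher and 658 lower in the Glut2L-labelled library of STZ mice, and 50 higher and 64 lower after STZ in Glut2L.

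**Figure D4:**
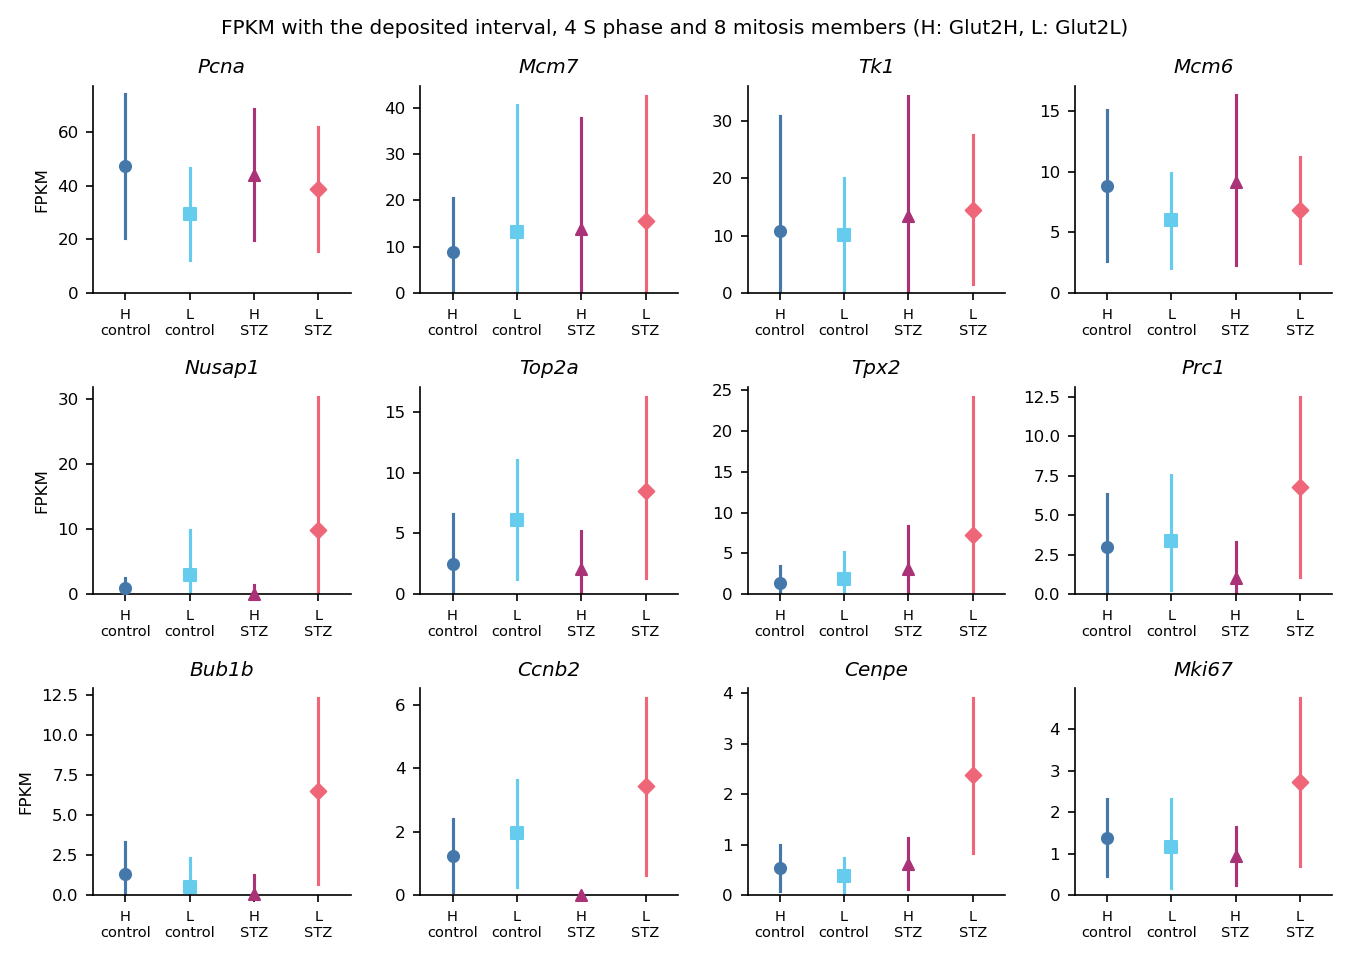
FPKM (vertical axis) with the deposited interval for 4 S phase genes (Pcna, Mcm7, Tk1 and Mcm6) and 8 mitotic genes in the 4 libraries (H is Glut2H, L is Glut2L), each panel on its own scale starting at 0. The intervals of Glut2L control and Glut2L STZ are apart for Cenpe, and those of Bub1b and Nusap1 overlap.

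Other genes of the same pathways, on lists that do not include the 45, were counted in the same way. Of 57 other G2 and mitosis genes, 18 were at least 2-fold higher and 1 lower in the Glut2L-labelled library of STZ mice, among 42 with enough signal, beside 22.9% and 17.8% of all genes compared, and the median over all 57 was 0.75. After STZ in Glut2L 11 were higher and 0 lower of 44, beside 10.2% and 11.1%, with a median of 0.37. In Glut2H 4 were higher and 4 lower of 30, beside 9.62% and 13.8%, with a median of -0.16. Between gates in control mice 6 were higher and 5 lower of 36, beside 19.7% and 18.5%, with a median of 0.12. The last 4 counts are near those of the whole table. Most of the 18 were below 1 FPKM in Glut2H STZ, and some of the 11 in Glut2L control, so these passed the filter only through Glut2L STZ. At least 1 FPKM was reached by 26 of the 57 in Glut2H STZ, 34 in Glut2L control and 41 in Glut2L STZ. The counts of 18 and 11 are therefore not a fair match to the background shares. Nek2, a centrosome kinase, was at 0.911, 0.456, 1.19 and 9.88 FPKM, and Pbk, a mitotic kinase, at 0.121, 1.46 and 4.73 FPKM, listed at 0 in Glut2H STZ. Kifc1, a minus-end spindle motor, was at 0.727, 0.881 and 7.56 FPKM and likewise listed at 0 in Glut2H STZ. In the opposite direction Melk, a kinase gene of proliferating cells, was highest in Glut2H control, at 5.83, 0.606, 0.855 and 3.10 FPKM.

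The 50 other replication genes were counted against the same shares. Between gates in STZ mice 5 were at least 2-fold higher and 1 lower among 45, both below the 22.9% and 17.8% of the whole table, with a median over all 50 of 0.29. After STZ in Glut2L 6 were higher and 1 lower among 43, beside 10.2% and 11.1%, with a median of 0.17. In Glut2H 6 were higher and 5 lower among 43, beside 9.62% and 13.8%, with a median of 0.02, and between gates in control mice 7 were higher and 9 lower among 44, beside 19.7% and 18.5%, with a median of 0.08. Rfc4, a subunit of the clamp loader for PCNA, was at 0.808, 3.78, 0.773 and 7.56 FPKM, and Pola1, the catalytic subunit of polymerase alpha, at 4.83, 8.63, 2.50 and 14.9 FPKM. Mcm10, a helicase activation factor, was highest in Glut2L control, at 0.601, 5.72, 0.250 and 2.08 FPKM, the same order of libraries as Cdc45. The origin recognition subunit Orc4 went the other way, at 30.5, 47.8, 97.9 and 23.7 FPKM, with its highest level in Glut2H STZ. Pold3, at 91.0, 33.1, 18.9 and 21.2 FPKM, had the largest fall of the list after STZ in Glut2H (log2 difference -2.21). Pold2 was at 49.8, 24.6, 10.9 and 16.3 FPKM (-2.10 in Glut2H). Pold1, at 9.48, 2.36, 11.0 and 15.9 FPKM, had the largest rise after STZ in Glut2L (2.33).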

How the data were processed

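Total RNA of 4 sorted islet cell fractions was sequenced, 1 library each, after removal of ribosomal RNA (Ribo-Zero Gold) and stranded library preparation, per the labels' protocols. The authors used TopHat2, SAMtools and Cuffdiff on GRCm38 (mm10), per the submitters' processing notes. The sources used here give neither their versions nor the annotation release or library normalization. The deposited FPKM, per the file headers, come with 2 other interval bounds and a status for each gene and library. All 45 genes had status OK in every library. The tables of the single samples hold the same FPKM (156680 values compared, 0 differing). Depth in reads is unknown.

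Groups follow the labels. The 4 comparisons took log2(FPKM + 1) over genes with at least 1 FPKM in either library and status OK in both, and called genes at 2-fold or more. No test was run, since each group is 1 library. The members, lists and rules were chosen with earlier results of these data known. Levels are given for each member that reached 5 FPKM or was called, and for some others, such as Mki67, whose naming followed sight of the values; of the other pathway genes the 2 highest and 2 lowest called per comparison could be named. Of 45 members 18 share their locus row with other genes. Sgol2a, on the list of other mitotic genes, was not matched. Positions are from GENCODE M21 (GRCm38), promoters from RefSeq (GRCm38.p6). Promoters were not found for Kif20a, Gins2, Stmn1, Aurkb, Cdc25c, Mcm4, Tpx2, Foxm1 and Ccna2. Alternatives were pseudocounts of 0.1 and 5, no filter or 5 FPKM, the bounds, the single-sample tables and 3 scalings; those by locus and without Cdt1 and Gins2, and the rankings, class sums and class ratio, were chosen after seeing the data. The call rule was run on simulated data with changes set past the 2-fold line, without noise, in genes of at least 5 FPKM. Its outcome was fixed in advance, so it checks only the code. Python 3.11.15, pandas 2.3.3, NumPy 2.4.6 and matplotlib 3.10.9 were used.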

Additional observations from a re-analysis of the deposited data

Results flagged for a closer look

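Bub1b passed the 2-fold line in opposite directions in the 2 gates: the log2 difference for STZ against control was 2.31 in Glut2L and -1.10 in Glut2H. The difference between the gates was not tested, since each group has 1 library. With an equal sum per library the Glut2H value was -0.97, short of the line. The deposited intervals of Bub1b overlap in both comparisons.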

How the results depend on the processing

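Of 160 values recomputed under alternatives, 120 stayed within the limits set (a count within 1.5 times, a median log2 difference of the same sign and shifted by no more than a 1.5-fold change), 35 moved further and 5 changed sign. No filter, the single-sample tables, the equal sum without dominant rows, and the added sets (without Cdt1 and Gins2; loci of 1 gene) took none past these limits, although with loci of 1 gene the mitotic median for STZ in Glut2H went from -0.43 to -0.98 and the S phase median between control gates from -0.24 to -0.49. Medians here are over genes with enough signal, which as deposited gave 0.12, 1.19, -0.43 and 0.78 (mitosis) and -0.24, 0.16, -0.36 and 0.15 (S phase) in the 4 comparisons. A pseudocount of 5, which shrinks low genes by construction, left 0 higher and 1 lower between gates in control mice, 2 and 0 in STZ mice, 0 and 0 for STZ in Glut2H, and 2 and 0 in Glut2L; the mitotic median between gates in STZ mice became 0.47. A pseudocount of 0.1 gave 1.91 for that median, 3 higher in Glut2H and 15 higher in Glut2L after STZ. A filter of 5 FPKM, which leaves fewer genes, gave 2 higher and a mitotic median of -0.23 between gates in control mice, 7 higher, 0 lower and an S phase median of -0.037 in STZ mice, 0 higher, 1 lower and a mitotic median of -1.17 for STZ in Glut2H, and 4 higher and 1 lower in Glut2L. Centring every comparison on its median, 4 were higher and the mitotic median was -0.0285 between gates in control mice, and the S phase median was -0.0728 in STZ mice. An equal sum over all rows moved the median of all genes to 0.85 and 1.19 between gates in control and STZ mice. It gave 13 higher and an S phase median of 0.44 in control mice, 31 higher, 0 lower and medians of 1.01 (S phase) and 1.88 (mitosis) in STZ mice, and 0 higher for STZ in Glut2H. For the scalings and the pseudocount of 0.1 the cause was not tested. Requiring intervals apart left 0 and 0, 1 and 0, 0 and 1, and 1 and 0 higher and lower in the 4 comparisons.

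Between gates, the share of higher among all calls of the table was 51.6% in control and 56.4% in STZ mice as deposited, 78.0% and 85.1% with an equal sum, and 43.0% and 43.1% with the median set to 0; for STZ in Glut2H it was 41.0%, 31.4% and 46.3%. Single calls moved with the scaling. With the median set to 0, Foxm1, Top2a and Nusap1 left the 2-fold line in control mice, Rrm2, Mybl2, Cdc25b, Cenpe and Tpx2 in STZ mice, and Prc1 in Glut2H. With an equal sum, Stmn1 left it in control mice, Mcm3 and Birc5 in STZ mice, and Ccna2 and Bub1b in Glut2H. No paired analysis was possible because each group has 1 library and the labels give no replicate numbers. The unknown depth, intervals whose half-width is about the level itself, and the single library per group limit every value given.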
